A study of Dahlia pinnata with 6 samples.

Results

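miR166 and miR165 are near-identical plant microRNAs, and their names were found as 2 rows among the 116 rows with microRNA names and the 47083 rows of a small RNA count table from bicolor dahlia petals. The rows were taken by their exact names. miR166 and miR165 are treated as one family because their known targets are the same. Of the 116 microRNA names, 29 were on the list of plant families used here. The rest, such as let-7a, bantam, miR-12 and miR647, were not, and ranks and medians over microRNA names include them where tested. In all libraries, 83 of the names had 20 reads or fewer. The petals came from the dahlia cultivar Yuino, grown in a greenhouse, and were dissected into their red, pigmented area and their white area without pigment. There were 3 small RNA libraries of each part, all of 1 genotype with no further treatment. Whether the 3 were taken from different plants is not stated in the labels, so p-values reflect only how these libraries vary, in part perhaps for technical reasons. The study asked whether flavonoids, the pigment family of the red part, hold back siRNA production by the Dicer-like enzyme DCL4. The table names no transcript, so the identity of the 2 parts could not be checked against marker genes.

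Plant microRNAs are generally cut from hairpin precursors by DCL1, a different Dicer-like enzyme, and loaded into ARGONAUTE proteins. In Arabidopsis, miR165 and miR166 direct the cleavage of class III HD-ZIP transcripts such as PHABULOSA, PHAVOLUTA and REVOLUTA, which encode transcription factors of the upper side of lateral organs and of vascular tissue. The microRNAs accumulate on the lower side and limit these factors to the upper side. ARGONAUTE10 binds the same microRNAs and keeps them from acting in the meristem.

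miR166 was among the abundant small RNAs of both parts and was lower in white. Red replicates 1, 2 and 3 held 36004, 25369 and 30766 reads named miR166. White replicates 1, 2 and 3 held 17282, 15556 and 17997 such reads. No white library reached the lowest red one. Scaled to 1000000 tabulated reads of the library's column total (CPM), the level was 9831, 7216 and 9386 in the red libraries. It was 4921, 4617 and 5286 CPM in the white libraries. The white mean of 4941 ± 334.8 CPM was 56.1% of the red mean of 8811 ± 1399 CPM (SD, n = 3 each). Red replicate 2 lay nearest to the white libraries on this scale. In whole pieces of tissue, fewer cells that make a small RNA and less of it per cell cannot be told apart.

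miR165 was rare. Its reads numbered 22, 23 and 43 in red replicates 1, 2 and 3 and 19, 20 and 18 in white replicates 1, 2 and 3. Exact Poisson 95% intervals, which cover counting error only, ran from 13.8 to 33.3 reads for red replicate 1 and from 31.1 to 57.9 reads for red replicate 3. In white replicate 3, the library with the fewest reads, the interval ran from 10.7 to 28.4 reads. Red replicate 3 stood above the other libraries, and the other 5 lay within each other's intervals. On column totals the mean of miR165 was 8.56 ± 3.96 CPM over the red libraries and 5.54 ± 0.34 CPM over the white ones (SD, n = 3 each). The lowest red value was 6.01 CPM and the highest white value 5.94 CPM, so the groups were separated by less than the counting error of any library.

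**Figure D1:**
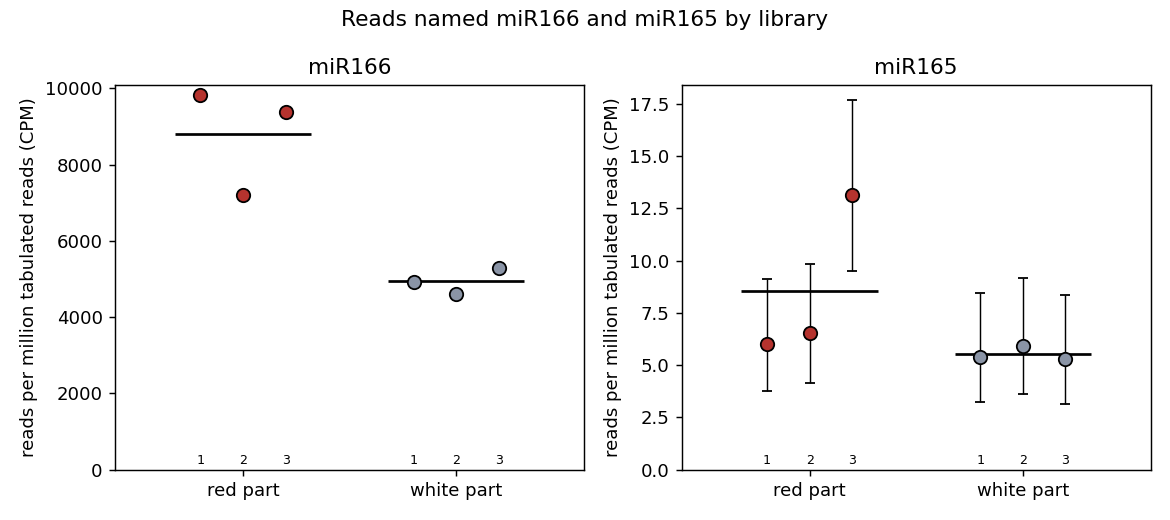
CPM on column totals (linear axes from 0) of miR166 and miR165 in each library, with the replicate number under each point and a line at the mean of 3 libraries. Bars for miR165 are exact Poisson 95% intervals of its count. The white libraries lie between 4617 and 5286 CPM for miR166, below the red libraries at 7216 to 9831 CPM, while the intervals for miR165 in red replicates 1 and 2 overlap those of the white libraries and that of red replicate 3 lies above them.

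The spread within a part was set against counting error for each name. For miR166, counts within red varied far beyond counting error, with a chi-square per degree of freedom of 785 against the column totals, and within white it was 76.9. For miR165 the value was 6.30 in red and 0.073 in white. The chi-square grows with the number of reads, so its values do not compare the spread of the 2 names. The coefficient of variation of the CPM was 15.9% in red and 6.78% in white for miR166. For miR165 it was 46.3% in red and 6.22% in white. At 18 to 20 reads of miR165 per white library, the 6.22% does not measure a spread beyond counting error.

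The tabulated reads numbered 3277753 to 3662222 per library, and 7001 rows were tested, of which 34 had microRNA names. By edgeR's quasi-likelihood test with trimmed-mean (TMM) scaling, 74 rows passed at an adjusted p under 0.05, which is 1.06% of the tested rows. Those lower in white were 0.528% of tested rows. The number passing was 46 if red replicate 1 was omitted, 176 if red replicate 2 was omitted and 35 if white replicate 3 was omitted. Both miR166 and miR165 passed the filter on low counts and were tested.

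In that test miR166 fell in white. Its TMM-normalised counts were 9283, 7374 and 8991 CPM in red replicates 1 to 3 and 5132, 5612 and 5353 CPM in white replicates 1 to 3. Every white library was below every red library, as it was for 8.84% of all tested rows. The log2 fold change was -0.67 ± 0.12 SE (edgeR adjusted p = 0.022), with white at 62.8% of red. Over the 9 pairs of a white and a red library, white ranged from 55.3% to 76.1% of red. Same-numbered pairs gave 55.3%, 76.1% and 59.5% for replicates 1, 2 and 3. The smallest difference was thus within replicate 2. White replicate 2 was the lowest white library on column totals and the highest after TMM scaling, which gave it a scaling factor of 0.845 against 0.985 and 1.02 for white replicates 1 and 3. Of the 37 rows that fell, 29 fell further than miR166. By unadjusted p, miR166 stood at rank 41 of all tested rows.

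The call of miR166 depended on single libraries and on the scaling, while its direction was the same under all 13 alternatives run. Leaving out red replicate 1 took the edgeR adjusted p to 0.058, leaving out white replicate 1 to 0.084 and leaving out white replicate 3 to 0.107, and a stricter filter on low counts to 0.057. With scaling to the total of microRNA-named reads the edgeR adjusted p was 0.22, and with that total less the 2 names it was 0.17. With the replicate number as a block it passed (edgeR adjusted p = 0.0055), as it did without red replicate 2 (0.0041) and by DESeq2 (adjusted p = 0.020). Scaling moved all rows together. The log2 fold change of the median row was -0.0098 with TMM, -0.17 with library totals and 0.18 with scaling to the microRNA total. The log2 fold change of miR166 was -0.67, -0.84 and -0.49 under these scalings. Relative to the median row it was -0.66, -0.67 and -0.67.

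**Figure D2:**
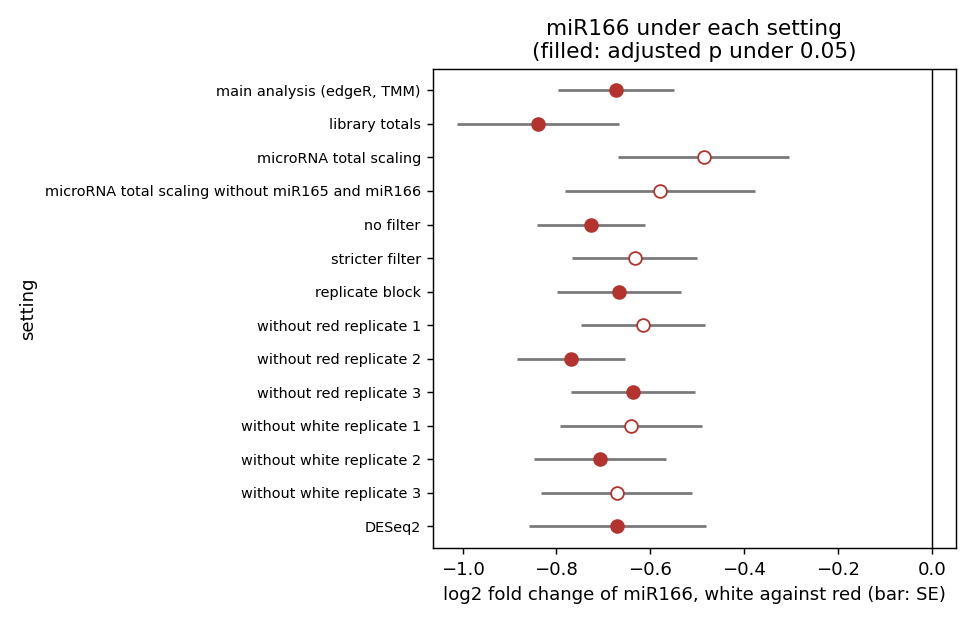
Log2 fold change of miR166 in white against red, with its standard error, under each setting, and a line at 0. Filled points passed at an adjusted p under 0.05 over all rows tested under that setting. The 14 values lie between -0.84 and -0.49, and 8 of them passed.

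miR165 did not pass. Its TMM-normalised counts were 5.67, 6.69 and 12.6 CPM in red replicates 1 to 3 and 5.64, 7.22 and 5.35 CPM in white replicates 1 to 3. White replicate 2 lay above red replicates 1 and 2, so the groups overlapped on this scale. The difference was -0.45 ± 0.35 SE on the log2 scale (edgeR adjusted p = 0.65). Without red replicate 3 it was -0.034 ± 0.34 SE (edgeR adjusted p = 0.99). Reads of the 2 names may have been divided by a rule that is not given in the sources used here. With both names summed into 1 row, white differed from red by -0.67 ± 0.12 SE on the log2 scale (edgeR adjusted p = 0.022), since miR165 adds few reads.

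The ratio between the 2 names does not depend on the scaling of the libraries. There were 0.611, 0.907 and 1.40 reads of miR165 per 1000 reads of miR166 in red replicates 1, 2 and 3. White replicates 1, 2 and 3 held 1.10, 1.29 and 1.00 per 1000. The white values all lay within the red range. The white mean was 1.13 ± 0.14 per 1000 against a red mean of 0.972 ± 0.397 (SD, n = 3 each). The two-sided exact permutation p was 0.6 (adjusted 0.6 over the 3 measures taken per library). Without red replicate 1 the order of the means turned, with white lower by a difference of -0.024. With the libraries of a part pooled, exact binomial 95% intervals for counting error ran from 0.766 to 1.18 per 1000 in red and from 0.849 to 1.45 per 1000 in white. Over all libraries there were 145 reads of miR165 and 142974 of miR166. Between red replicates the counting intervals did not all overlap, at 0.383 to 0.925 per 1000 in replicate 1 and 1.01 to 1.88 per 1000 in replicate 3.

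Among microRNA-named reads, miR166 held rank 3 in each of the 6 libraries. miR396, which targets GRF transcription factors of cell proliferation, and miR159, which targets GAMYB-like factors, stood above it. In TMM-normalised counts the levels were 17526 ± 1943 CPM for miR396, 12547 ± 596.3 CPM for miR159 and 8550 ± 1028 CPM for miR166 in red (SD, n = 3 each). In white they were 18539 ± 2120, 8701 ± 1045 and 5366 ± 240.1 CPM (SD, n = 3 each). The libraries of these 3 neighbours did not overlap within either part. By mean over the libraries of a part the next names were miR858, a regulator of MYB genes, and miR162, which targets DCL1 in Arabidopsis. In red, miR858 stood at 1521 ± 454.9 CPM and miR162 at 1350 ± 298.9 CPM, and their libraries overlapped. In white, miR858 at 1341 ± 113.2 CPM lay below miR162 at 1639 ± 217.9 CPM in all libraries (SD, n = 3 each). This order did not hold in each library. In red replicate 2, miR156 at 1485 CPM and miR167 at 1202 CPM lay above miR858 at 995.9 CPM. In white replicate 2, miR647 at 2559 CPM, miR156 at 1744 CPM and miR167 at 1539 CPM lay above both miR858 and miR162. miR165 ranked between 21 and 30 among the microRNA names of a library. By mean in red it lay between miR398 at 9.27 ± 4.88 CPM and miR-12 at 7.74 ± 2.26 CPM (SD, n = 3 each), within the spread of both. The table gives no length for the sequences behind a name, so this is an order of read counts. Among all rows of the table, contigs included, miR166 ranked 10, 15 and 6 in red replicates 1, 2 and 3 and 21, 19 and 21 in white replicates 1, 2 and 3.

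miR166 and miR165 together also took a smaller share of the microRNA-named reads in white. The share was 20.7%, 16.0% and 18.8% in red replicates 1, 2 and 3, and 13.2%, 11.9% and 14.5% in white replicates 1, 2 and 3. The Wilson 95% intervals nearest to each other were 15.8% to 16.2% for red replicate 2 and 14.3% to 14.7% for white replicate 3. The white mean was 13.2% ± 1.3 and the red mean 18.5% ± 2.3 (SD, n = 3 each). Each white library lay below each red one, and the two-sided exact permutation p was 0.1, the smallest that 3 libraries against 3 can give (adjusted 0.15 over the same 3 measures). Of this share, miR165 took little, and its groups overlapped. Scaled to 1000000 microRNA-named reads, miR166 averaged 131953 ± 12878 reads over the white libraries and 184856 ± 23409 over the red ones (SD, n = 3 each), so white was at 71.4% of red. On the same scale miR165 averaged 147.7 ± 4.9 reads over white and 178.0 ± 73.8 over red (SD, n = 3 each).

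**Figure D3:**
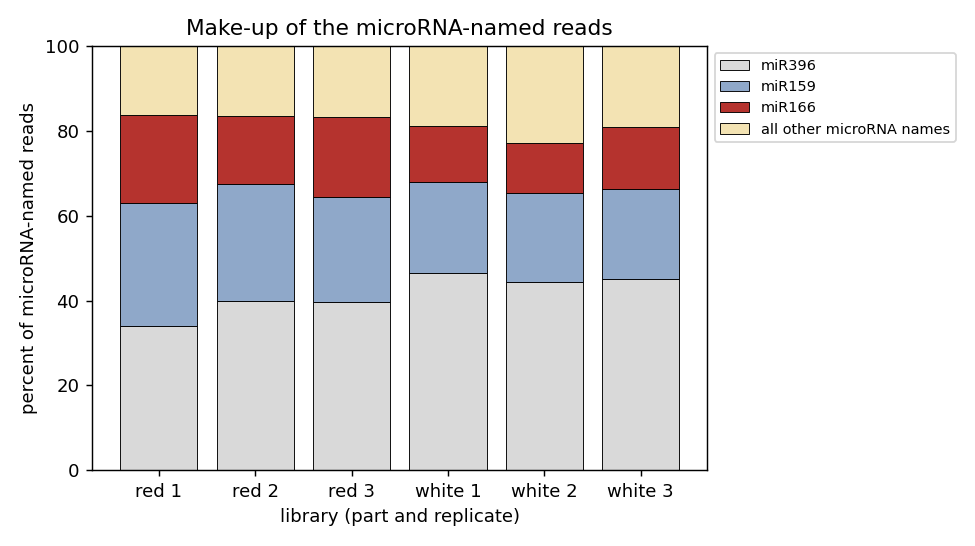
Make-up of the microRNA-named reads of each library, in percent (bars from 0 to 100). The miR166 segment is 16.0% to 20.7% of the red bars and 11.9% to 14.5% of the white bars, and the miR396 segment is larger in the white bars, at 44.3% to 46.4% against 34.1% to 39.8%.

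Of all tabulated reads, the family's part was 0.495% ± 0.033 in the white libraries and 0.882% ± 0.140 in the red ones (SD, n = 3 each). The two-sided exact permutation p was again 0.1 (adjusted 0.15). All microRNA names together had 3.75% ± 0.11 of the white reads and 4.75% ± 0.24 of the red reads (SD, n = 3 each). This difference of 1.00 percentage points held 0.387 points of miR166, or 38.6% of it. miR159 held another 49.1%. Without miR166 and miR165, the other microRNA names had 3.26% ± 0.15 of the white reads and 3.87% ± 0.16 of the red reads (SD, n = 3 each), and the parts did not overlap.

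Within a library, the level of miR166 relative to other names depended on the name. There were 60.6, 40.3 and 47.5 reads of miR166 per 100 reads of miR396 in red replicates 1, 2 and 3, and 28.3, 26.9 and 32.1 in white replicates 1, 2 and 3. Against miR396, white was at 58.9% of red with no overlap. Per 100 reads of miR159 there were 71.3, 57.9 and 75.7 reads of miR166 in red and 60.9, 56.9 and 68.4 in white, and the groups overlapped. Of 32 other tested names with a read in every library, the ratio of miR166 to the name was lower in each white library than in each red one for 11 and overlapped for 21. It was higher in each white library for 0. These ratios share the miR166 counts, which were lower in each white library, so the numbers 11 and 0 follow in part from miR166 itself. No such share was computed over the other rows, and the ratios were not tested.

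The microRNA names whose profile over the 6 libraries was most like that of miR166 were miR170, miR159 and miR394. Their log2 CPM correlated with that of miR166 at Pearson r of 0.92, 0.90 and 0.88. These correlations are a description over 6 libraries that share the difference between the parts and the scaling. miR170, a name close in sequence to miR171 and a regulator of GRAS factors, had TMM-normalised counts of 354.0, 173.2 and 310.4 CPM in the red libraries and 146.4, 179.3 and 145.7 CPM in the white ones, in replicate order. Red replicate 2 was the lowest red library for miR170, as for miR166. It was the lowest red library for 13 of the 34 tested names. miR165 was most like miR403 and miR168, which target ARGONAUTE genes in Arabidopsis, and miR780. In the order miR403, miR780 and miR168 they were at r of 0.82, 0.75 and 0.71, and miR166 correlated with miR165 at 0.50. For miR165 these values rest on 18 to 43 reads per library. The 43 were in red replicate 3, the library that stood above the others.

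**Figure D4:**
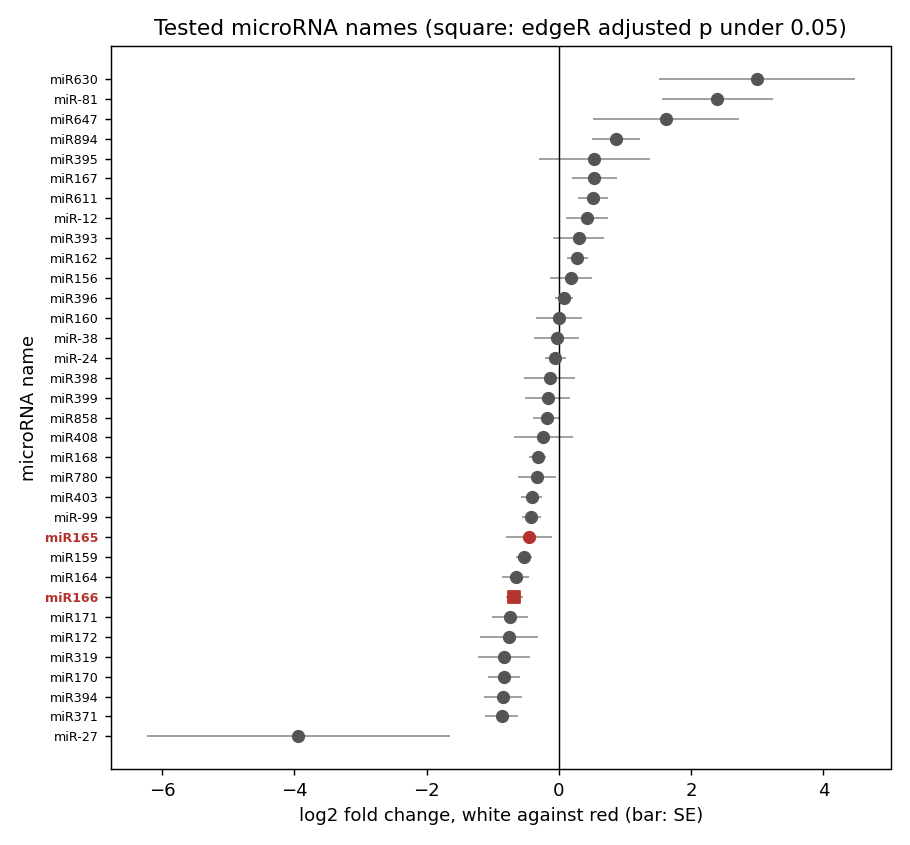
Log2 fold change in white against red, with its standard error, of the 34 tested microRNA names. miR166 at -0.67 and miR165 at -0.45 are in red letters. The square marks miR166 as the name that passed at an edgeR adjusted p under 0.05, and the circles did not pass.

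Other microRNAs of organ polarity and shape had values of both signs in the main test. The list held miR390, which starts the trans-acting siRNAs that limit ARF factors to the lower side of the leaf. It also held miR160 and miR167 of other ARF genes, miR164 of CUC boundary genes, miR319 of TCP genes, miR394 of the meristem regulator LCR and miR396. Of its 7 names, 6 were tested and miR390, with 0 to 5 reads per library, was not. By edgeR's test 0 of the 6 passed, against 1.06% of all tested rows. Of the 6, 3 had lower and 3 higher values in white, and their median was -0.32 on the log2 scale against -0.0098 over the tested rows. Among the higher values, those of miR396 and miR160 were smaller than their SE. At an unadjusted p under 0.05, which 12.5% of all tested rows reached, miR164 and miR394 had lower values. DESeq2, which called 3.56% of the rows it gave an adjusted p, called 0 of the 5 tested names of the list for which it was defined and left miR160 undefined.

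On the log2 scale, miR164 differed by -0.65 ± 0.21 SE (edgeR adjusted p 0.17), miR394 by -0.84 ± 0.28 SE (0.21) and miR319 by -0.83 ± 0.39 SE (0.44). The difference was 0.53 ± 0.34 SE for miR167 (edgeR adjusted p 0.60), 0.081 ± 0.132 SE for miR396 (0.86) and 0.0081 ± 0.3488 SE for miR160 (0.99). With scaling by library totals the values of miR160 and miR396 turned negative, at -0.14 and -0.086. With the replicate block miR164 passed as lower (edgeR adjusted p = 0.026) and miR167 as higher (0.014).

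Among the plant families, 20 other than miR166 and miR165 were tested, of which 13 had lower and 7 higher values in white. By edgeR's test 0 of them passed, against 1.06% of all tested rows. An unadjusted p under 0.05 was reached by 7 of the 20, against 12.5% of all tested rows. By DESeq2 1 passed, miR170, against 3.56% of the rows it gave an adjusted p. DESeq2 left miR160, miR172 and miR408 without an adjusted p. The median log2 fold change of the 20 families by edgeR was -0.21, and 5 of the 20 had values below that of miR166. With the replicate block, 4 of the 34 tested microRNA names passed as lower (miR166, miR159, miR164 and miR371), against 2.59% of all tested rows. As higher, 1 passed, miR167, against 2.24%. In the main test miR159 was at -0.53 ± 0.12 SE on the log2 scale (edgeR adjusted p 0.067). It passed with the replicate block (edgeR adjusted p 0.019) and with library totals (0.025). It did not pass with scaling to the microRNA total (0.38) or by DESeq2 (adjusted p 0.10). In TMM-normalised counts, each white library was below each red one for 7 of the 34 names, miR166 and miR159 among them, against 8.84% of all tested rows. For 2 of the 34 each white library was above each red one. In either direction, the parts did not overlap for 17.8% of all tested rows. The median of all 34 tested microRNA names was -0.18 with TMM and turned to 0.027 with scaling to the microRNA total.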

How the data were processed

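The values the authors deposited are whole-number read counts, not normalised, for 3 red and 3 white small RNA libraries (NEBNext kit, per the labels' protocols). The submitters' processing notes name cutadapt and Bowtie2. Their settings, the rule for assigning reads to microRNA names and the read lengths counted are not given in the sources used here. A microRNA name has up to 6 characters in the table, and reads of longer family numbers could have been joined with miR165 or miR166. All 47083 rows have a read in red replicate 1, while 11093 to 12808 rows are at 0 in each of the other libraries. The table as used holds no row without a read in red replicate 1, so such rows could not be analysed. Which rows are present thus depends on a red library, and the effect of this on the comparison of the parts was not tested. Totals are of tabulated reads, not of sequenced libraries.

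The white and red libraries, 6 in all, were compared in R 4.3.3 with the quasi-likelihood test of edgeR 4.0.16, using robust dispersion, TMM scaling and a minimum count of 10. Benjamini-Hochberg adjustment covered every tested row, with a threshold of 0.05. The standard error is the log2 fold change divided by the square root of F. The procedure was tested on simulated data. Values per library were compared with scipy 1.17.1 by exact permutation tests, two-sided. Counting intervals are at 95% and cover counting error only.

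Same-numbered red and white libraries correlated across rows at 0.20, 0.29 and 0.20 once log2 CPM (prior count 2) had been centred within each part, above the limit of 0.1 for treating the numbers as pairs. Differently numbered libraries correlated at -0.19 to 0.0052. The pairing rests on the numbers in the titles and these correlations. The main test did not use the pairing, and the replicate block was run as an alternative. More rows passed with the block, 338 against 74. Alternatives were library totals, scaling to the microRNA total with and without the 2 names, DESeq2 (1.42.0), no filter, a minimum count of 50, each library left out and the replicate block.

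The members and lists were chosen with earlier results of these data known. Named are miR166 and miR165, for each the 3 tested microRNA names most correlated with it, 7 microRNAs of organ polarity and shape, the 5 most abundant names and miR159. miR398 and miR-12, as neighbours of miR165, and miR156, miR647, miR371, miR172 and miR408 were named after their values were seen.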

Additional observations from a re-analysis of the deposited data

How the results depend on the processing

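miR166 had a negative log2 fold change under all 13 alternatives to the main value of -0.67. It no longer passed with scaling to the microRNA total (-0.49), with that total without the 2 names (-0.58) and with the stricter filter (-0.63). Leaving out 1 library gave values of -0.77 to -0.61, and it did not pass without red replicate 1, white replicate 1 or white replicate 3. The summed names lost the call under the same 6 settings, at -0.49, -0.58 and -0.63 under the first 3 and within -0.77 to -0.61 over the left-out libraries. miR165 was negative under all 12 alternatives that tested it, from -0.68 to -0.034 with 1 library left out; the stricter filter did not keep it, and DESeq2 left its adjusted p undefined. The 74 changed rows became 154 with library totals, 135 with microRNA total scaling, 254 with no filter and 338 with the replicate block, and 35 to 176 with 1 library left out. The causes were not tested. The ratio of miR165 to miR166 (white minus red 0.157 per 1000) ranged from -0.024 to 0.370 with 1 library left out and turned without red replicate 1. With the replicate block, an exact sign-flip test over 3 pairs, which cannot go below 0.25, gave p = 0.75 for the ratio and 0.25 for both shares. The share of microRNA reads stayed lower in white, by -6.53 to -4.21 percentage points with 1 library left out. The block changed no call of miR166 or miR165.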
